A study of Homo sapiens with 62 samples.

Results

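The libraries described here are those of HCT116, a human colorectal cancer line, with and without its gain of the long arm of chromosome 8 (8q). They are the 6 libraries labelled HCT116 among the 62 libraries of the series, taken by their labels: 2 of the parental cells (WT) and 4 of 8q-loss cells, which are 2 libraries each of clones 1 and 2. The series compares cancer and breast epithelial lines with derivatives from which a recurrent chromosome gain had been removed. WT HCT116 cells carry 3 copies of 8q, per the labels. The 8q-loss cells have the genotype label 8q-loss and were made by ReDACT-CO, a method for removing a chromosome arm, aimed at chromosome 8q. Each clone grew from a single cell, so the libraries of a clone share whatever else that cell carried, and a trait of 1 clone cannot be told apart from an effect of the arm. RNA was taken 24 hours after plating, and all groups were otherwise grown without a drug or other agent named in the labels. The labels do not say that libraries of a group came from separate cultures, so the p-values measure the spread between these libraries, which may be technical. Both clones are compared with the same 2 WT libraries, and their values are therefore set side by side and not counted as independent results.

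8q holds many genes, among them MYC, which encodes a transcription factor that drives growth and ribosome production, and the neighbouring noncoding gene PVT1. The transcription factor p53 is held low by MDM2 and MDM4 and, when active, switches on genes for cell cycle arrest (CDKN1A), apoptosis (BBC3, BAX, FAS) and repair (DDB2, XPC).

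The deposited tables gave 21373588 to 30984036 counts per library over 58735 genes, of which 15659 passed the filter on low counts and were tested. Values per library are CPM, the usual scaling of counts to library size, here with library sizes adjusted by the trimmed mean of M-values. A gene was called when its adjusted p was under 0.05 in edgeR's quasi-likelihood test with Benjamini-Hochberg adjustment over all genes tested, and every adjusted p below comes from that test. Libraries of 1 group stood apart. Over 6001 well-expressed genes, the SD of the log2 difference was 0.54 between the WT libraries, 0.45 within clone 1 and 0.20 within clone 2. Pairs from different groups ran from 0.44 (WT library 1 and clone 1 library 1) to 0.77 (clone 1 library 1 and clone 2 library 1). Once the GC trend of each library was removed, pairs within a group had 0.34, 0.32 and 0.18. The same 2 pairs from different groups then had 0.44 and 0.60. These differences ran with the GC content of the genes (Spearman's rho of the deviation with GC 0.66 in WT library 1 and -0.57 in WT library 2, a description over genes), and WT library 1 and clone 1 library 2 had fewer genes with a count (16393 and 16305) than the other 4 (18013 to 19057). The first principal component, with 62.6% of the variance, set clone 1 (29.5 and 9.28) apart from clone 2 (-29.3 and -24.6) and split the WT pair (24.9 and -9.76). With the GC trend removed it held 57.4%, with clone 1 at 19.9 and 16.3, clone 2 at -24.2 and -24.7, and WT at 14.5 and -1.86. The second component, with 17.2% before GC removal, set both WT libraries (17.04 and 15.49) apart from all 4 8q-loss libraries (-13.4 to -3.93). Epithelial genes were present in part: KRT8, KRT18, KRT19, CDX2 and EPCAM were present in every library, whereas the intestinal genes MUC2, FABP1 and CEACAM6 were at 0 in all 6. Marker lists of other cells were low, with summed levels of 4.64 to 11.3 CPM for 12 immune genes (PTPRC at 0 in every library), 10.6 to 21.8 CPM for 12 fibroblast and endothelial genes (PDGFRA at 0 in every library) and 8.26 to 15.1 CPM for 10 melanocyte genes (TYR at 0 in every library).

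Expression of 8q was lower in both clones, and MYC was not called. Relative to the other autosomal arms, the median of the 328 tested genes of 8q stood at -0.59 and -0.51 (log2) in the libraries of clone 1 and at -0.65 and -0.67 in those of clone 2, against -0.12 and 0.12 in the WT libraries. These medians correspond to 68.4% of WT in clone 1 and 63.2% in clone 2. With the GC trend of each library removed, a setting chosen after seeing the data, the WT libraries lay at 0.002 and -0.002, clone 1 at -0.51 and clone 2 at -0.67. No test is given for the arm, since 2 libraries against 4 cannot reach an exact two-sided p under 0.133. Of the 328 genes, 102 were lower in all 4 8q-loss libraries than in both WT libraries (31.1%, against 8.29% of all genes tested), and 5 were higher in all 4 (1.52%, against 5.95%). In clone 1, 4 genes of 8q fell (CPNE3, GGH, MTFR1 and TP53INP1), where 0.326% of all genes tested were called lower. In clone 2, 23 fell and none rose, where 0.952% of all genes were called lower. With the 4 libraries as 1 group, 0 of the 328 were called by edgeR, and 79 had an unadjusted p under 0.05 (78 lower and 1 higher), where 854 of all 15659 genes did. DESeq2 called 7 of the 328, all lower, where it called 72 of all genes lower. With the GC trend removed, 39 genes of 8q fell in clone 1 and 98 in clone 2, where 1.51% and 4.89% of all genes were called lower.

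MYC (chr8:127735434-127741434, hg38) stood at 450 and 356 CPM in the WT libraries, at 276 and 299 in clone 1, and at 351 and 363 in clone 2. Both libraries of clone 1 were below the WT pair, while clone 2 lay across the lower WT library. The log2 fold change of MYC was -0.49 in clone 1 (adjusted p = 0.531) and -0.17 in clone 2 (adjusted p = 0.751). PVT1 was at 135 and 83.5 CPM in WT, 99.9 and 107 in clone 1 and 78.2 and 78.7 in clone 2, with clone 1 inside the WT range. Among 28 tested genes of ribosome biogenesis known to respond to MYC, none was called in the group comparison or in either clone against WT, and the median log2 fold change was 0.08 for the group, where all tested genes had 0.02. That median was 0.27 without WT library 2, 0.16 without clone 1 library 2 and 0.04 without clone 2 library 1. The 8q gene with the lowest fold change among those above a mean of 30 CPM was SCRIB, a cell polarity gene, at 602 and 371 CPM in WT, 275 and 181 in clone 1 and 164 and 207 in clone 2. All 4 8q-loss libraries were below both WT libraries, and SCRIB passed the test in clone 2 (log2 fold change -1.39, adjusted p = 0.0397) and not in clone 1 (-1.09, adjusted p = 0.171). GGH, which encodes an enzyme that trims folate polyglutamates, was at 46.4 and 64.8 CPM in WT, 18.7 and 20.3 in clone 1 and 15.4 and 13.2 in clone 2. It was chosen after its values were seen, and it fell in both clones (-1.51, adjusted p = 0.0267, and -1.96, adjusted p = 0.00506). TP53INP1, a p53 target that lies on 8q, fell in clone 1 from 5.18 and 6.51 CPM to 0.387 and 0.118 (-4.50, adjusted p = 0.00837, overlapping NDUFAF6), and had 1.41 and 1.15 CPM in clone 2 (-2.18, adjusted p = 0.0909).

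The 2 clones differed in a stretch of 8q near the centromere, a window chosen after its values were seen. In the 18 genes between 50 and 60 Mb, the median was -0.66 in clone 2 and -0.16 in clone 1 relative to the other arms (-0.98 and -0.09 with the GC trend removed), whereas between 60 and 70 Mb, with 24 genes, it was -0.65 in clone 2 and -0.82 in clone 1. The WT libraries lay at -0.31 and 0.31 in both windows before GC removal, and in the first window the libraries of clone 1 were unequal, at -0.50 and 0.17, while those of clone 2 were at -0.49 and -0.84. Clone 1 library 1 thus lay beside clone 2 library 1, outside the WT values, and clone 1 library 2 lay inside them. Tested directly, 6 of the 18 genes were lower in clone 2 than in clone 1 (AC064807.1, RGS20, MRPL15, RPS20, CHCHD7 and SDCBP), and none was higher, where 2.57% of all genes were called lower in clone 2 (9 of 18 against 9.14% with the GC trend removed). RPS20, which encodes a protein of the small ribosomal subunit, shows the pattern and was chosen after its values were seen. It stood at 641 and 670 CPM in WT, 877 and 775 in clone 1 and 290 and 278 in clone 2. Clone 1 was above the WT pair and clone 2 below it, and the difference between the clones was -1.54 (SE 0.23, adjusted p = 0.00446). MRPL15, a protein of the mitochondrial ribosome, had 41.3 and 53.2 CPM in WT, 48.6 and 66.8 in clone 1 and 24.3 and 21.8 in clone 2 (clone 2 against clone 1 -1.32, adjusted p = 0.0253). Beyond 60 Mb, MTFR1, a mitochondrial fission gene also chosen after its values were seen, had 19.7 and 29.8 CPM in WT, 6.58 and 6.90 in clone 1 and 15.6 and 16.7 in clone 2. Here clone 1 was the lower of the clones (1.26 in clone 2 against clone 1, adjusted p = 0.0441). Between 130 and 140 Mb, a window of 12 genes also chosen after its values were seen, the clones parted the other way. The median there was -0.61 in clone 1 and -0.09 in clone 2 (-0.60 and -0.18 with the GC trend removed), with WT at -0.19 and 0.19 before GC removal. The plot along chromosome 8 shows where the medians of each clone leave 0.

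**Figure D1:**
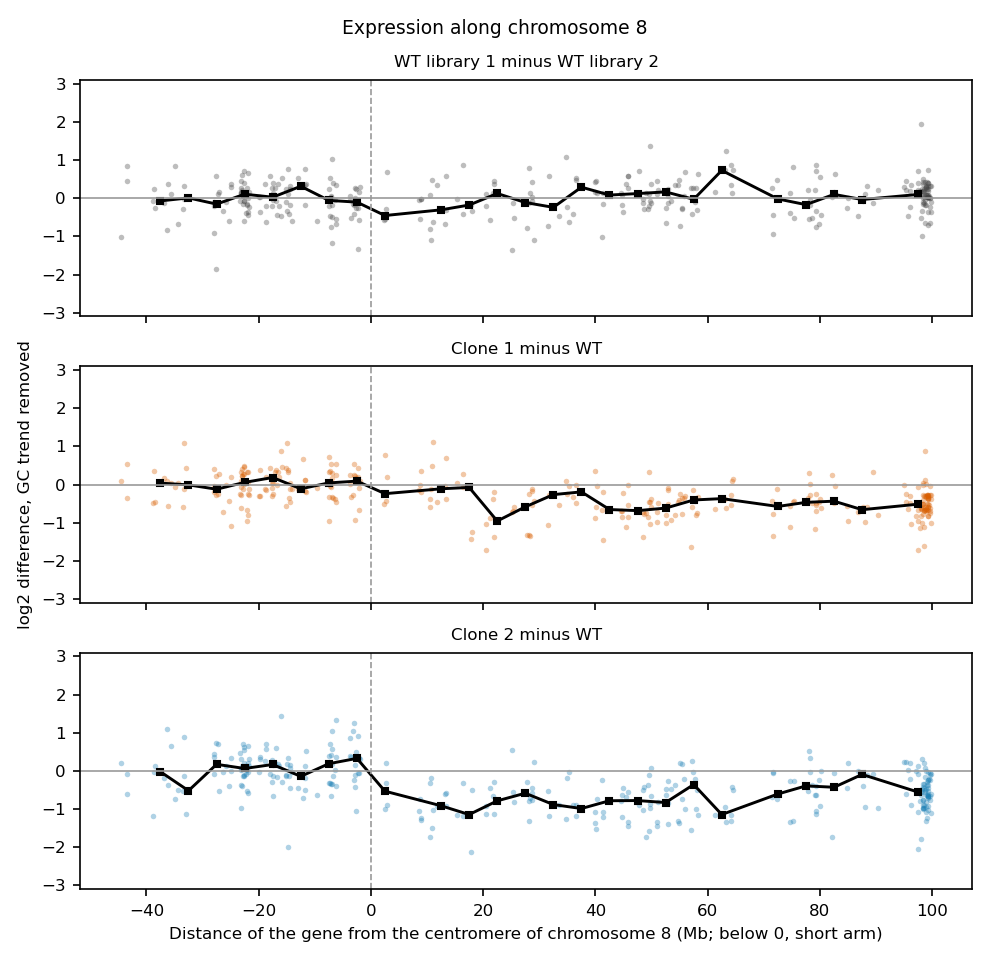
Log2 difference of the 335 of 519 tested genes of chromosome 8 with a mean of at least 5 CPM over the 6 libraries, with the GC trend of each library removed, against its distance from the centromere in Mb (below 0, short arm), for WT library 1 minus WT library 2 (grey), clone 1 minus the WT mean (orange) and clone 2 minus the WT mean (blue). Points are genes (drawn at the edge beyond 3), black squares are medians of 5-Mb bins with 5 or more genes; clone 1 medians are close to 0 in the first 20 Mb of the long arm, where those of clone 2 are low.

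Outside 8q, 7p stood apart in clone 1. The median of its 270 tested genes was 0.43 and 0.40 in the libraries of clone 1 (133.6% of WT), -0.00 and -0.02 in clone 2, and -0.04 and 0.04 in WT, and removing the GC trend left 0.42 and 0.01 for the clones. Both libraries of clone 1 were above both WT libraries for 107 of the 270 genes (39.6%, against 15.8% of all genes). In clone 1, 3 genes of 7p rose against WT (OGDH, RADIL and UPP1, where 0.313% of all genes were called higher), and with the GC trend removed 40 did (1.77% of all genes). In clone 2 against clone 1, 33 were lower and 0 higher, where 2.57% of all genes were called lower and 2.09% higher. With the GC trend removed, 66 were lower and 4 higher, where 9.14% and 7.38% of all genes were. CYCS, the 7p gene for cytochrome c, had 134 and 166 CPM in WT, 285 and 242 in clone 1 and 139 and 130 in clone 2. Clone 1 was above all other libraries, and the clones differed by -0.97 (adjusted p = 0.0422). The 52 genes of 18p were at -0.36 and -0.13 in the libraries of clone 1 after GC removal, which are unequal, and at -0.00 in clone 2. The arms 7p and 18p were chosen after their values were seen. The plot of arm shifts gives every arm, before and after GC removal.

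**Figure D2:**
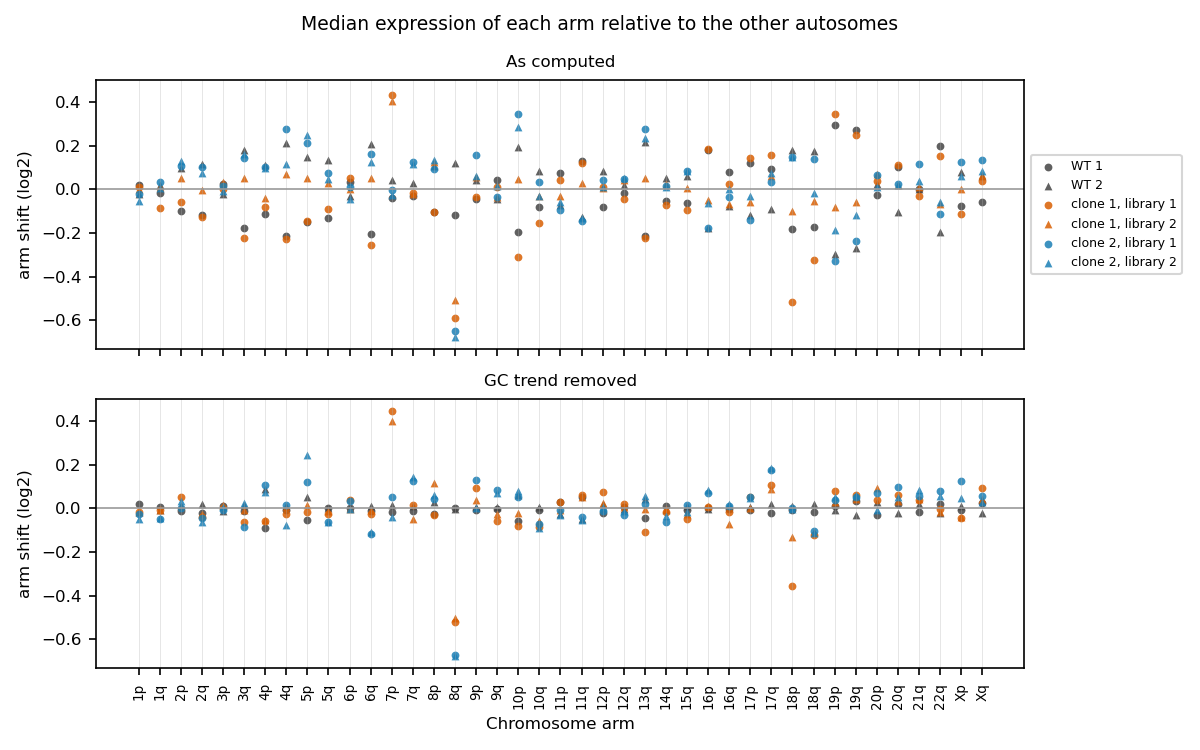
Median log2 CPM of the genes of each chromosome arm relative to the other autosomal arms and to the WT mean, in each of the 6 libraries (grey WT, orange clone 1, blue clone 2; circles library 1, triangles library 2), as computed (top) and with the GC trend removed (bottom). In the lower panel 8q is low in all 4 8q-loss libraries and 7p is high in the 2 libraries of clone 1.

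With the 4 8q-loss libraries against WT, 22 of 15659 genes were called (0.140%), 18 lower and 4 higher. The share was 0.0255% for genes called higher and 0.115% for genes called lower. Of the 22 genes, 5 are in the p53 target lists below (CDKN1A, GDF15, BBC3, PLK2 and RPS27L). All 22 lost the call without WT library 1 and without clone 1 library 2 (0 genes called, 433 and 829 with an unadjusted p under 0.05), and 7 of the 22 kept it without WT library 2. In tests of each clone against WT, 100 genes were called in clone 1 (49 higher, 51 lower, 0.639% of those tested) and 200 in clone 2 (51 higher, 149 lower, 1.28%). With the GC trend removed, the called share was 0.275% for the group (0.0830% higher and 0.192% lower), 3.28% in clone 1 (1.77% higher and 1.51% lower) and 9.29% in clone 2 (4.40% higher and 4.89% lower). Without 1 library of its own, clone 1 was left with 12 or 13 called genes, and without any 1 of the 4 8q-loss libraries clone 2 was left with 35 to 52. CDKN1A, GDF15, GALNT5 and GPAT2 stayed called in both clones with each of the 6 libraries left out in turn.

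A part of the p53 target genes fell in both clones. CDKN1A (chr6:36676460-36687339), which encodes the cyclin-dependent kinase inhibitor p21, had 708 and 501 CPM in the WT libraries, 92.7 and 83.9 in clone 1 and 39.1 and 36.2 in clone 2. The groups did not overlap, and clone 2 was below clone 1. The log2 fold change was -3.26 (SE 0.38, adjusted p = 0.00605) for the group, -2.77 in clone 1 (adjusted p = 0.000369) and -4.00 in clone 2 (adjusted p = 2.17e-05), and the clones differed by -1.23 (adjusted p = 0.0233). GDF15 (chr19:18374731-18389176), a secreted stress cytokine, had 144 and 100.4 CPM in WT, 16.8 and 8.83 in clone 1 and 11.02 and 12.9 in clone 2. All 4 8q-loss libraries were far below WT, at a log2 difference of -3.30 (adjusted p = 0.00297, SE 0.31), and the clones lay across each other. BBC3, which encodes the proapoptotic BH3-only protein PUMA, had 47.3 and 26.1 CPM in WT, 10.1 and 7.09 in clone 1 and 9.64 and 9.26 in clone 2 (log2 fold change -2.02, adjusted p = 0.0428). The 4 8q-loss libraries lay close together below both WT libraries. PLK2, a polo-like kinase induced by p53, had 63.5 and 107 CPM in WT, 21.4 and 28.1 in clone 1 and 22 and 22.5 in clone 2 (-1.86, adjusted p = 0.0312). RPS27L, a ribosomal protein paralog induced by p53, had 88.0 and 102 CPM in WT, 33.9 and 33.5 in clone 1 and 32.0 and 21.7 in clone 2 (-1.65, adjusted p = 0.0448). In both genes the groups were separate. RPS27L overlaps LACTB, and strand use in counting is not given in the sources used here.

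Of a list of 12 tested p53 targets outside 8q, 8 were lower in all 4 8q-loss libraries than in both WT libraries and none was higher, where 7.80% of all genes outside 8q were lower. The median log2 fold change of the list was -1.09 in clone 1 and -0.96 in clone 2, beside -0.03 and -0.01 over all genes tested outside 8q. In clone 1, CDKN1A and RPS27L fell, and in clone 2 DDB2 did as well, where 0.326% and 0.952% of all genes were called lower. After GC removal 8 of the 12 fell in clone 1 and 7 in clone 2, where 1.51% and 4.89% of all genes were called lower. In a further list of 23 targets, 12 were lower in all 4 and none higher, with medians of -0.73 and -0.80. Of these 23, 6 fell in clone 1 and 9 in clone 2, against the same shares over all genes (0.326% and 0.952%). Those in both clones were GDF15, BBC3, PLK2, BTG2, EDA2R and PHLDA3. PHLDA3, which encodes an inhibitor of AKT, had 184 and 108 CPM in WT, 53.5 and 30.9 in clone 1 and 20.8 and 24.8 in clone 2 (-1.79, adjusted p = 0.0232, and -2.68, adjusted p = 0.00181). The other 3 that fell in clone 2 were FAS, TP53I3 and PGF. FAS, a death receptor, had 5.89 and 10.02 CPM in WT, 3.13 and 2.96 in clone 1 and 1.31 and 0.839 in clone 2, where it fell by 2.88 (adjusted p = 0.0146).

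Single targets differed between the clones. DDB2, a sensor of ultraviolet damage, had 104.7 and 80.5 CPM in WT, 69.5 and 75.3 in clone 1 and 27.2 and 28.4 in clone 2. Clone 1 was just under the WT pair and clone 2 far under it, and the clones differed by -1.38 (adjusted p = 0.0143). TP53I3, a quinone oxidoreductase gene, had the same order, with 28.7 and 24.9 CPM in WT, 22.5 and 20.1 in clone 1 and 6.08 and 4.65 in clone 2 (clone 2 against clone 1 -1.99, adjusted p = 0.00645). KITLG, the ligand of the receptor KIT, went the other way between the clones, from 42.4 and 50.8 CPM in clone 1 to 128 and 116 in clone 2 (1.39, adjusted p = 0.0238), with 57.1 and 96.3 in WT. MDM2 had 17.04 and 41.3 CPM in WT, 8.09 and 15.1 in clone 1 and 25.2 and 25.6 in clone 2, and it was not called (adjusted p = 1.00 for the group). XPC, TNFRSF10A and TIGAR were not called in any comparison. MDM4 was at 7.32 and 11.8 CPM in WT, 7.12 and 9.93 in clone 1 and 27.0 and 22.2 in clone 2, higher in clone 2 than in clone 1 (1.53, adjusted p = 0.0333). MDM4 was chosen after its values were seen.

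**Figure D3:**
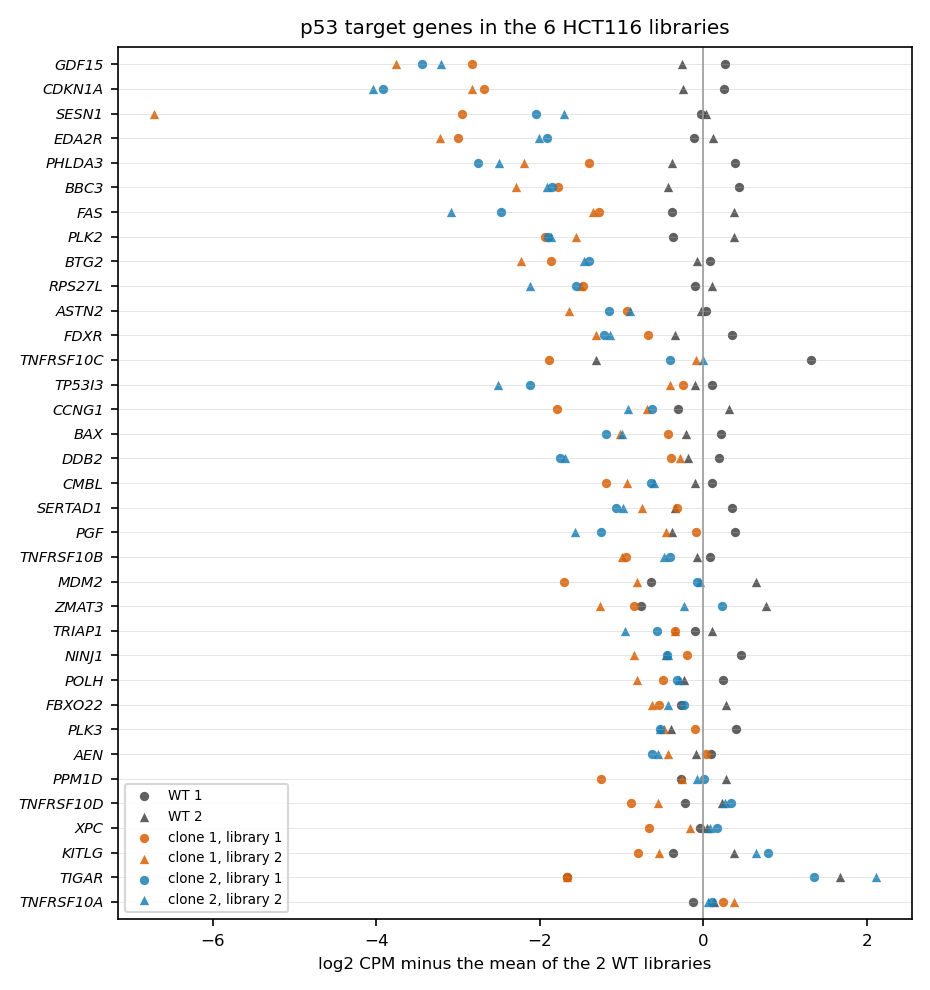
Log2 CPM (prior count 2) minus the mean of the 2 WT libraries for the 35 tested genes of the 2 p53 target lists outside 8q, ordered by log2 fold change, in each of the 6 libraries (grey WT, orange clone 1, blue clone 2; circles library 1, triangles library 2). CDKN1A and GDF15 lie lowest apart from 1 library of SESN1, and the lower rows overlap the WT libraries.

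Promoter sequence was read for the p53 lists, some members of which fell in both clones. The windows ran 300 bases (250 before and 50 after the start of each RefSeq gene, GRCh38.p14), and the p53 decamer, a single core copy of the p53 response element, was sought on both strands. It was present in 5 of the 11 list members with a window (45.5%) and in 2 of 17 of the further list (11.8%), against 8.06% of 27305 genes, and a match is a description of the letters only. The matches were in AEN, DDB2, FDXR, RPS27L and SESN1, and in FAS and PLK2 of the further list. CDKN1A, GDF15, BBC3 and PHLDA3, which also fell, were not among the genes with a match. The 250 bases before the start are shown for 3 genes picked because they fell (FAS in clone 2 only) and held a match. The sequences run 5′ to 3′ on the strand of the gene, with the match in capitals. They lie at chr15:63157478-63157727 (RPS27L, minus strand), chr5:58460087-58460336 (PLK2, minus strand) and chr10:88991181-88991430 (FAS, plus strand), with matches 59, 132 and 122 bases before the start.
RPS27L: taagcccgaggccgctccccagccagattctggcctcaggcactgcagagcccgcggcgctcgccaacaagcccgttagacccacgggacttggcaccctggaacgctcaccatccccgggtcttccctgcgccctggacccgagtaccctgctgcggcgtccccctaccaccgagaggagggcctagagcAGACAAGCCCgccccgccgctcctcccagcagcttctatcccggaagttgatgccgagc
PLK2: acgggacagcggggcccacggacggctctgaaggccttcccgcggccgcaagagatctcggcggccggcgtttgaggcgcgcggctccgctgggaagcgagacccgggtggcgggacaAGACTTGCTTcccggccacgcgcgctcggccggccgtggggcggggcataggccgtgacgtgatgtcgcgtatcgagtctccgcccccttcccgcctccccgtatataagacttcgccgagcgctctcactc
FAS: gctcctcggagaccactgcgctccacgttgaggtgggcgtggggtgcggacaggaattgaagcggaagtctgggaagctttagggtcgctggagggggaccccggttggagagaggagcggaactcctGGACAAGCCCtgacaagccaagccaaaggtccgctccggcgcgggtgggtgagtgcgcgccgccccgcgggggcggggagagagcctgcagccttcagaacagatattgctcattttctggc

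Interferon-stimulated genes had negative medians in both clones. The 28 tested genes had medians of -0.92 in clone 1 and -0.68 in clone 2, and 12 were lower in all 4 8q-loss libraries and none higher, where 7.80% and 6.05% of all genes outside 8q were. Clone 1 library 1 stood lowest, at -1.32, while the other 3 lay between -0.64 and -0.56. The median of clone 1 was -1.45 without clone 1 library 2, and that of clone 2 was -0.38 without WT library 2. Few members passed the test: IFIT1 and OASL fell in clone 1, where 0.326% of all genes were called lower, and IFIT1 fell and BST2 rose in clone 2, where 0.952% were called lower. None was called for the group by edgeR. For the group, 8 members had an unadjusted p under 0.05, all lower, where 854 of all 15659 genes did in either direction. DESeq2 called 2 members for the group, where it called 72 of all genes lower. After GC removal 3 fell in clone 1, where 1.51% of all genes were called lower, and 6 fell and 1 rose in clone 2, where 4.89% were called lower and 4.40% higher. IFIT1, which binds foreign RNA, had 25.4 and 30.9 CPM in WT, 5.997 and 7.29 in clone 1 and 7.53 and 11.4 in clone 2. The groups were separate, with a log2 fold change of -2.08 in clone 1 (adjusted p = 0.0126) and -1.57 in clone 2 (adjusted p = 0.0397). OASL, an antiviral gene of the oligoadenylate synthetase family, had 21.6 and 13.9 CPM in WT, 3.33 and 4.10 in clone 1 and 5.92 and 7.55 in clone 2 (clone 1 -2.26, adjusted p = 0.0136, clone 2 -1.40, adjusted p = 0.0805). BST2, which tethers budding viruses, went the other way in clone 2, from 2.00 and 2.07 CPM in WT to 6.74 and 9.68 (2.01, adjusted p = 0.0492), and had 1.86 and 1.85 in clone 1. IFITM1 was higher in clone 2 than in clone 1 (8.22 and 7.34 CPM against 1.12 and 1.26, 2.70, adjusted p = 0.0159). In the promoter windows, the core of the interferon-stimulated response element (GAAA, any 2 bases, GAAA, on either strand) was present in 16 of 22 list members (72.7%) against 4.38% of 27305 genes. The 16 include BST2 and IFITM1, and a match is a description of the letters only. The window of IFIT1 (chr10:89392373-89392622, plus strand) holds the core at 116 and 103 bases before the start, shown in capitals on the opposite strand.
IFIT1: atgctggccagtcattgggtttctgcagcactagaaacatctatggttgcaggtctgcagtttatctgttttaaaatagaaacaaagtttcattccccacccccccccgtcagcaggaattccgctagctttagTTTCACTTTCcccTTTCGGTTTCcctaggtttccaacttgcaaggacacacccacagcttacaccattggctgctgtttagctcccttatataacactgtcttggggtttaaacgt

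Genes of mitosis and of cholesterol synthesis were on the high side in both clones. Of 36 mitosis genes, 12 were higher in all 4 8q-loss libraries than in WT and none lower, where 6.05% of all genes outside 8q were higher, and the medians were 0.42 in clone 1 and 0.50 in clone 2 (0.31 without clone 2 library 1). None rose for the group or in clone 1 by edgeR. There 9 and 7 had an unadjusted p under 0.05, all higher, where 854 and 1530 of all 15659 genes did in either direction. DESeq2 called 0 and 2 of the list, where it called 45 and 159 of all genes higher. MKI67 and CENPF rose in clone 2, where 0.326% of all genes were called higher. After GC removal 6 rose in clone 1, where 1.77% of all genes did, and 10 rose and 1 fell in clone 2, where 4.40% and 4.89% did. MKI67, which encodes the proliferation marker Ki-67, had 51.6 and 73.7 CPM in WT, 73.2 and 66.8 in clone 1 and 178 and 189 in clone 2. Clone 1 lay within the WT range and clone 2 well above it (1.55, adjusted p = 0.0122, and clone 2 against clone 1 1.39, adjusted p = 0.0144). CENPF, a kinetochore protein gene, had 14.3 and 15.1 CPM in WT, 21.5 and 24.6 in clone 1 and 55.2 and 49.8 in clone 2 (clone 2 1.83, adjusted p = 0.00513). CDC20, which drives exit from mitosis, had 1364 and 821 CPM in WT and 852 to 1327 in the 8q-loss libraries, inside the WT range. Of 24 tested genes of the cholesterol synthesis list, 12 were higher in all 4 and none lower, with medians of 0.57 and 0.66. None rose for the group by edgeR, and 10 had an unadjusted p under 0.05, all higher, where 854 of all 15659 genes did in either direction. DESeq2 called 4 of the list for the group, where it called 45 of all genes higher. By edgeR 1 rose in clone 1 and 4 in clone 2, where 0.313% and 0.326% of all genes were called higher. Removing the GC trend gave 6 that rose in clone 1 (1.77% of all genes did), and 12 that rose and 1 that fell in clone 2 (4.40% and 4.89%). HMGCS1, an early enzyme of the pathway, had 5.18 and 14.9 CPM in WT, 22.2 and 27.2 in clone 1 and 36.1 and 36.1 in clone 2, and it rose in clone 2 (1.85, adjusted p = 0.0441). INSIG1, a sensor that restrains the pathway, had 14.1 and 14.9 CPM in WT, 18.6 and 27.6 in clone 1 and 44.8 and 34.1 in clone 2, where it rose as well (1.44, adjusted p = 0.0382). In both genes all 4 8q-loss libraries were above the WT pair. LPIN1, a phosphatidate phosphatase of lipid synthesis, rose in clone 2 (from 3.75 and 6.22 CPM to 17.4 and 18, with 6.54 and 6.03 in clone 1).

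None of the 13 mitochondrially encoded genes was called by edgeR against WT in either clone. In clone 1, 3 had an unadjusted p under 0.05, and in clone 2, 10 did, where 1530 and 2751 of all 15659 genes did in either direction. DESeq2 called 0 and 1 of the 13, where it called 134 and 537 of all genes lower. The summed level of the 13 genes was 84500 and 71190 CPM in WT, 59310 and 66350 in clone 1 and 58640 and 46800 in clone 2. All 4 8q-loss libraries had a smaller sum than both WT libraries, and 9 of the 13 genes were lower in all 4, where 7.80% of all genes outside 8q were. The share of all counts on the mitochondrial chromosome did not follow this order, with 8.74% and 8.98% in WT, 7.45% and 9.03% in clone 1 and 7.89% and 6.62% in clone 2. With the GC trend removed, the list's median was 0.34 and -0.34 in WT, -0.16 and -0.34 in clone 1, inside the WT range, and -0.68 and -0.93 in clone 2, where 12 of the 13 fell (4.89% of all genes did). MT-ND6, a complex I subunit chosen after its values were seen, had 980 and 973 CPM in WT, 475 and 660 in clone 1 and 781 and 506 in clone 2 (-0.69, adjusted p = 0.739). By edgeR 0 of the 13 were called for the group, and 5 had an unadjusted p under 0.05, where 854 of all 15659 genes did. DESeq2 called 0 of the 13 for the group. In bulk libraries, fewer cells of a kind and less RNA per cell cannot be told apart.

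**Figure D4:**
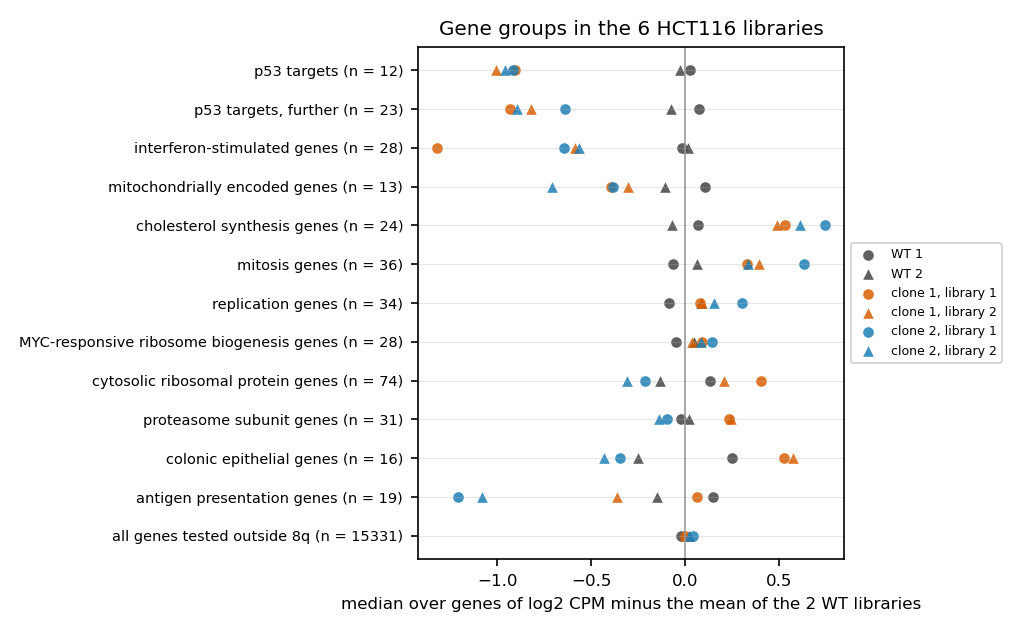
Median over the tested genes of each list of log2 CPM (prior count 2) minus the mean of the 2 WT libraries, per library (grey WT, orange clone 1, blue clone 2; circles library 1, triangles library 2), with n the genes tested outside 8q and all tested genes outside 8q at the bottom. Both p53 lists and the interferon list lie below WT in all 4 8q-loss libraries, cholesterol and mitosis genes lie above, and colonic epithelial and antigen presentation genes separate the clones.

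All 22 genes called for the group had fold changes of 1 sign in both clones, and each but CAPN6 was also called in both. They were chosen by a test that pooled the same libraries, so this agreement is largely set by the choice. Those outside the p53 lists are of several kinds. GALNT5, which starts mucin-type O-glycan chains, had 0 and 0 CPM in WT, 3.83 and 4.26 in clone 1 and 7.83 and 6.29 in clone 2. All 4 8q-loss libraries had it and neither WT library did, at least 34.6-fold higher in clone 1 and at least 60.3-fold higher in clone 2 than a floor of 3 counts per WT library (adjusted p = 0.00526 for the group). MLPH, a linker of melanosomes to myosin, had 3.14 and 4.74 CPM in WT and 0 in each of the 4 8q-loss libraries, at least 36.0-fold lower (adjusted p = 0.0279). PRSS3, a trypsinogen, had 7.79 and 4.14 CPM in WT, 0 and 0 in clone 1 and 0 and 0.0699 in clone 2, at least 54.5-fold lower (adjusted p = 0.00526). CAPN6 was at 0.929 and 4.61 CPM in WT and at 0 in 3 of the 4 8q-loss libraries (adjusted p = 0.0448). VIM, the mesenchymal intermediate filament gene, had 28.5 and 27.1 CPM in WT, 99.5 and 83.5 in clone 1 and 115 and 105 in clone 2. The groups were separate, with little spread inside WT (1.85, SE 0.28, adjusted p = 0.0312). SMTN, a smooth muscle actin-binding gene, had 204 and 133 CPM in WT, 25.1 and 15.6 in clone 1 and 28.6 and 25.4 in clone 2 (-2.83, adjusted p = 0.00526). SAT1, the rate-limiting enzyme of polyamine breakdown, had 77.2 and 95.2 CPM in WT, 21.8 and 25.7 in clone 1 and 13.9 and 12.1 in clone 2 (-2.23, adjusted p = 0.0307). In both genes the groups did not overlap. IL20RA, a cytokine receptor subunit, went from 12.4 and 10.6 CPM in WT to 0.670 to 1.12 in the 8q-loss libraries (-3.72, adjusted p = 0.00526). GPAT2, an acyltransferase gene that overlaps FAHD2CP, rose from 12 and 6.85 CPM in WT to 103 and 71.1 in clone 1 and 48.0 and 56.0 in clone 2 (2.88, adjusted p = 0.0307). The remaining 8 called genes were SYTL5, which rose, and SULF2, CORO2B, PLEKHA4, SMARCA1, GLIPR1, PDE4B and TMEM158, which fell by 2.38 to 3.96 (log2). GLIPR1 overlaps KRR1 and SULF2 overlaps NCOA3. The clones differed in GLIPR1 (1.05 and 1.70 CPM in clone 1 against 0.362 and 0.280 in clone 2, -2.08, adjusted p = 0.0407).

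Comparing the clones directly gave 730 called genes (4.66%), 328 higher (2.09%) and 402 lower (2.57%) in clone 2. Without any 1 of the 4 8q-loss libraries 15 to 46 genes were called, and without a WT library 2885 or 3043. Epithelial genes were among the lower ones. KRT8, a keratin of simple epithelia, had 3678 and 2528 CPM in WT, 4649 and 4573 in clone 1 and 1511 and 1560 in clone 2. Clone 1 was above both WT libraries and clone 2 below both, and the clones differed by -1.59 (adjusted p = 0.00415). CLDN7, a tight junction claudin, had 84.7 and 55.5 CPM in WT, 209 and 181 in clone 1 and 33.9 and 34.2 in clone 2 (-2.52, adjusted p = 0.000856). It stayed called with each of the 6 libraries left out in turn. CDH1, which encodes E-cadherin, had 5.50 and 2.71 CPM in WT, 11.96 and 8.87 in clone 1 and 2.01 and 1.57 in clone 2 (-2.54, adjusted p = 0.0132). S100A14, an epithelial calcium-binding protein gene, had 2.47 and 2.45 CPM in WT, 28.98 and 27.8 in clone 1 and 1.25 and 0.175 in clone 2 (-5.30, adjusted p = 0.000932). AP1M2, a sorting adaptor of epithelial cells chosen after its values were seen, had 18.6 and 16.6 CPM in WT, 151 and 148 in clone 1 and 6.51 and 7.34 in clone 2 (-4.43, adjusted p = 7.26e-06). In these genes clone 1 was above WT and clone 2 below. Of 16 tested colonic epithelial genes, 5 were lower and none higher in clone 2 than in clone 1, where 2.57% of all genes were called lower. The medians against WT were 0.46 in clone 1 and -0.42 in clone 2, with the WT libraries at 0.25 and -0.25. That of clone 2 was -0.23 with the GC trend removed and -0.16 without WT library 1, and that of clone 1 was 0.73 without WT library 1. The mesenchymal list did not move as 1 group: VIM and SPARC rose in both clones and ACTA2 fell in both. TAGLN, a smooth muscle marker, fell in clone 2 (45.3 and 24.2 CPM in WT, 16.2 and 16.3 in clone 1, 2.14 and 2.66 in clone 2, -3.86, adjusted p = 0.000309).

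**Figure D5:**
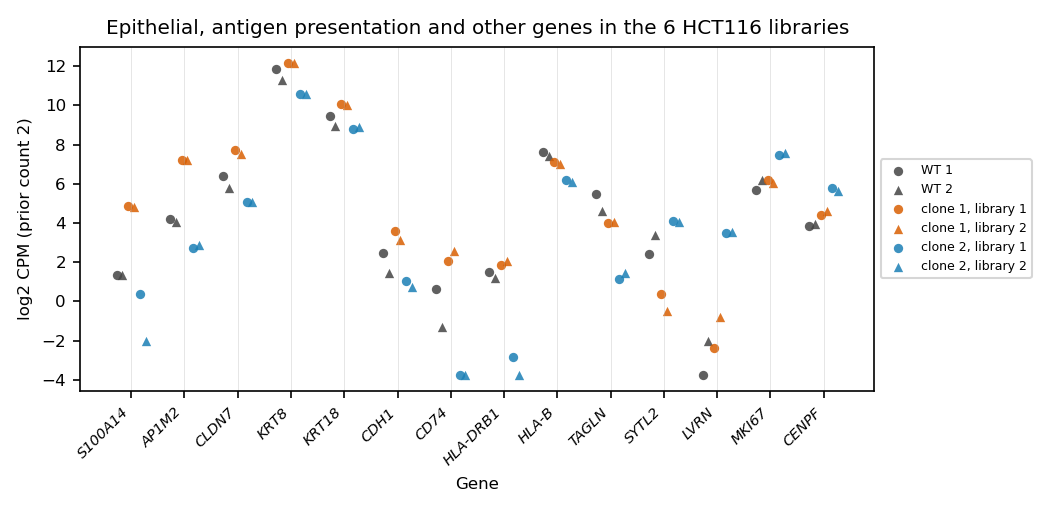
Log2 CPM (prior count 2) of 14 epithelial, antigen presentation and other genes in each of the 6 libraries (grey WT, orange clone 1, blue clone 2; circles library 1, triangles library 2). Keratin, claudin and S100A14 levels are above WT in clone 1 and below it in clone 2, and CD74 and HLA-DRB1 are at or near 0 counts in clone 2.

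Of 19 tested antigen presentation genes, 5 fell in clone 2 (CD74, HLA-DRB1, HLA-B, HLA-F and TAP1) and none in clone 1, where 0.952% and 0.326% of all genes were called lower. In clone 2, 14 of the 19 were lower in both libraries than in both WT libraries (26.5% of all genes were), and the median was -1.19 beside -0.17 in clone 1. With 1 library left out the clone 2 median ran from -1.45 to -0.77 (without WT library 2 and without WT library 1), and that of clone 1 turned positive without WT library 1 (0.17) and without clone 1 library 2 (0.08) and was -0.39 without clone 1 library 1. Each of the 5 lost its call against WT without clone 1 library 1, clone 1 library 2 or clone 2 library 2, and with the GC trend removed 12 of the 19 fell in clone 2, where 4.89% of all genes did. CD74, the invariant chain of MHC class II, had 1.47 and 0.338 CPM in WT, 4.18 and 5.99 in clone 1 and 0 in both libraries of clone 2, at least 50-fold lower than clone 1 (adjusted p = 0.00377). HLA-DRB1, a class II beta chain, had 2.72 and 2.20 CPM in WT, 3.56 and 4.06 in clone 1 and 0.0658 and 0 in clone 2, at least 37.4-fold lower than in clone 1. HLA-B, a class I heavy chain, had 196 and 171 CPM in WT, 137 and 127 in clone 1 and 73.7 and 69.2 in clone 2, and it fell in clone 2 (-1.36, adjusted p = 0.0156). HLA-B and the related HLA-F share sequence with paralogs, so their counts could be split between copies. OR51B5 and the overlapping AC104389.4 were at 0 in both libraries of clone 2, with 6.31 and 7.01 CPM of OR51B5 in clone 1 and 1.5 and 2.66 in WT. Their reads cannot be told apart here, and OR51B5 stayed called with each of the 6 libraries left out in turn. In the other direction, LVRN, an aminopeptidase, had 0 and 0.169 CPM in WT, 0.116 and 0.512 in clone 1 and 11.1 and 11.6 in clone 2 (5.16 in clone 2 against clone 1, adjusted p = 0.00442). SYTL2, a vesicle transport gene, had 5.36 and 10.3 CPM in WT, 1.24 and 0.630 in clone 1 and 16.9 and 16.6 in clone 2 (4.15, adjusted p = 0.000932). SLC30A10, a manganese exporter, had 2.22 and 2.37 CPM in WT, 0 and 0 in clone 1 and 1.71 and 1.19 in clone 2, so clone 1 alone lacked it. The ribosomal protein genes also separated the clones: of 74 tested, 6 were lower and none higher in clone 2, where 2.57% of all genes were called lower. After GC removal 49 were lower and none higher, where 9.14% of all genes were called lower. The medians against WT were 0.29 in clone 1 and -0.28 in clone 2, with the WT libraries at 0.14 and -0.14. Without WT library 2 the median of clone 1 was 0.17, and without WT library 1 that of clone 2 was -0.14.

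The fold changes were set beside those of the 8q-loss clones of A2058, a melanoma line. The 22 genes were chosen by their calls in HCT116, which favours a difference between the lines, so their count is a description. In the interaction of line and loss over 18105 genes, 93 (0.514%) differed between the lines, 39 higher (0.215%) and 54 lower (0.298%) in HCT116. Without 1 of the WT libraries of A2058 the count was 40 to 57, and without WT library 2 of HCT116 it was 355. Among the 22 genes and MYC, PVT1 and MDM2, 13 were called in the interaction, and none of the 22 was called in A2058 itself. CDKN1A was at 10.9 to 28.3 CPM in the 4 WT libraries of A2058 and at 20.9 to 42.5 in its 4 8q-loss libraries, which overlap. GDF15 was at 150 to 177 CPM in WT and 109 to 170 in 8q-loss A2058 cells. MYC was at 36.4 to 42.8 CPM in WT and at 20.03 to 25.1 in the 8q-loss libraries of A2058, without overlap (-0.85, adjusted p = 0.0104), and its change in HCT116 did not differ beyond the test's threshold (0.60, adjusted p = 0.298).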

How the data were processed

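RNA-seq was made from 6 HCT116 libraries (poly-T selected mRNA, random hexamer priming, per the labels' protocols). The authors deposited a count of reads per gene for each library, made with HISAT2 2.0.5 and featureCounts 1.5.0-p3 on hg38, per the submitters' processing notes; strand use is not given in the sources used here. Counts were tested with edgeR 4.0.16 in R 4.3.3 (filterByExpr with a minimum count of 10 and a total of 15, TMM, quasi-likelihood F-test, Benjamini-Hochberg adjustment). The group comparison used 4 libraries against 2, each clone was tested in a fit with 3 groups, and the interaction added 8 A2058 libraries. The arm shift is a difference of medians over genes. Depth was 21373588 to 30984036 counts per library. Counting error is small beside the spread between libraries for well-expressed genes, but not for genes with a few counts in a library, such as CAPN6 and PRSS3. Coordinates are those of the deposited tables. GC content came from GENCODE 29 transcripts (99.955% of genes tested), and the GC trend of a library was removed by loess (span 0.3). Alternatives were DESeq2 1.42.0, other scaling, filters, leaving out each library, and a replicate block. The members and lists (34 lists, 900 genes) were chosen with earlier results of these data known. Genes were named by rule: MYC, PVT1, CDKN1A and MDM2, every gene called for the group up to 30, the 6 largest rises and falls per clone comparison among called genes above a mean of 1 CPM, up to 5 members per list, and 5 lowest and 5 highest 8q genes above 30 CPM; further genes are said to be chosen after their values were seen or are named in the count of a list. Results for a few genes are not reported here.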

Additional observations from a re-analysis of the deposited data

Results flagged for a closer look

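A library far from the other 3 (by Dixon's test on its gap to the nearest) was found in 4 of 70 groups of 4 8q-loss libraries, where chance flags about 1 in 20. For 2 of the 4 this was fixed by zeros in the other 3 libraries, and no library is shown to stand apart: CAPN6 had 0.0349 CPM in clone 2 library 2, a single count, and PRSS3 had 0.0699 CPM there, 2 counts. RPS27L had 21.7 CPM in clone 2 library 2, below 32.0 to 33.9 in the others. The median of the interferon-stimulated genes was -1.32 in clone 1 library 1, below -0.64 to -0.56 in the others.

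The effect of 8q loss differed between HCT116 and A2058 by edgeR's quasi-likelihood interaction test in 13 of 25 genes asked, of which 22 had been chosen by their calls in HCT116, given here as HCT116 minus A2058 on the log2 scale with the adjusted p. The difference was lower in HCT116 for MLPH (-9.67, adjusted p = 0.000281), GLIPR1 (-4.32, adjusted p = 0.000702), CDKN1A (-3.94, adjusted p = 0.00244), CORO2B (-3.29, adjusted p = 0.00424), SMARCA1 (-3.22, adjusted p = 0.0124), PDE4B (-3.03, adjusted p = 0.00215) and GDF15 (-2.95, adjusted p = 0.00053). It was also lower for SMTN (-2.65, adjusted p = 0.00821), PLEKHA4 (-2.48, adjusted p = 0.000702), BBC3 (-1.95, adjusted p = 0.0375) and RPS27L (-1.54, adjusted p = 0.0132). It was higher for GALNT5 (13.13, adjusted p = 0.000281), a fitted value that depends on the prior count since both WT libraries of HCT116 had none, and for VIM (1.96, adjusted p = 0.000702). The fitted value of MLPH depends on the prior count too.

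Between the clones, clone 2 was lower than clone 1 in CDKN1A by -1.23 (adjusted p = 0.0233) and in GLIPR1 by -2.08 (adjusted p = 0.0407) on the log2 scale, by edgeR's test of that difference.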

How the results depend on the processing

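Counts of called genes moved with the processing, and the cause was not tested. For the group, 22 genes were called, and the count was 117 with DESeq2 (45 higher), 133 without a filter, 43 with the GC trend removed (13 higher), 62 with GC and length trends removed, 47 without clone 1 and 117 without clone 2. It was 0 without both libraries of low detection (434 genes with an unadjusted p under 0.05), and 0 to 28 with 1 library left out. For clone 1, 100 genes became 293 (DESeq2), 261 (no filter), 514 (GC), 495 (GC and length), 5058 (without both low-detection libraries) and 12 to 300 (1 library left out). For clone 2, 200 became 836, 781, 1454, 1038, 2573 and 35 to 2826 in the same order. For clone 2 against clone 1, 730 became 2019, 1753, 2587, 1538, 6582 and 15 to 3043. Differences between the lines went from 93 to 400 with DESeq2, 165 without a filter and 40 to 355 with 1 library left out. Without both low-detection libraries, WT and clone 1 hold 1 library each. In the fits per clone the spread then comes from the clone 2 pair alone (SD of their log2 difference 0.20), and the lone libraries are assumed to vary like it. In the group fit the spread comes from the remaining 8q-loss libraries of both clones. Settings that removed GC or both low-detection libraries were chosen after seeing the data. The replicate numbers did not pair the samples across all groups. The correlation of same-numbered deviations was 0.64 for WT and clone 1, but -0.36 for WT and clone 2 and -0.42 for the clones. With the GC trend removed, these correlations were 0.26, 0.03 and -0.14. A replicate block gave 8, 306, 976, 2208 and 23 called genes for the group, clone 1, clone 2, clone 2 against clone 1 and the lines, and 13, 775, 1865 and 2990 for the first 4 with the GC trend removed as well.

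The 8q shift of -0.60 was -0.68 to -0.50 with 1 library left out. Medians of the p53, interferon, mitochondrially encoded, mitosis and cholesterol lists kept their sign under the other scalings, GC removal and each library left out, in the group and in both clones. Of 102 list medians, 82 kept their sign without WT library 1 and 89 without WT library 2. Of 4350 values of named genes under these settings, 334 had the opposite sign, called in neither fit, and 101 of the 235 results behind them changed sign under at least 1 setting. In the main fit 18.2% of called genes were higher, against 38.5% with DESeq2 and 30.2% with the GC trend removed; for clone 2 it was 25.5%, against 47.4% with the GC trend removed.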
